A study of Caenorhabditis elegans with 2 samples.

Results

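The microRNA (miRNA) genes of Caenorhabditis elegans were examined for chromatin association of the splicing factor REPO-1. All 261 nuclear genes that Ensembl release 115 gives the biotype miRNA were taken, of 46890 annotated nuclear genes of every biotype, by a rule that uses biotype alone. ChIP-seq had been done on whole mixed-sex young adults collected 53 hours after synchronisation as starved L1 larvae, in 1 group of 2 biological replicates. Every worm was of strain OP688, with the mutation unc-119(tm4063) on chromosome III and the integrated transgene wgIs688, which encodes REPO-1 with GFP and FLAG at its C terminus. Sonicated chromatin was precipitated with an antibody to GFP. The lists describe a tagged transgene product in a mixture of all tissues, and a peak cannot be assigned to a tissue. No untagged strain or input library is used here as a control, and the lists hold no read counts, so depth is unknown.

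A miRNA gene is transcribed as a long primary transcript. The nuclease Drosha (DRSH-1 in the worm) with its partner PASH-1 cuts a hairpin out of it, Dicer (DCR-1) cuts the hairpin to a short duplex, and an Argonaute protein (mainly ALG-1 or ALG-2) keeps 1 strand as the mature miRNA. Bases 2 to 8 of the mature miRNA, the seed, do most of the pairing with target mRNAs, and miRNAs are grouped into families mainly by seed. The families here were taken from a list, and some differ from the genes that share a seed. For example, mir-58c has the seed of mir-80 but is not listed, and mir-58.1 is listed with another seed. Many worm miRNA genes lie in introns of protein-coding genes, where they can be made from the host's transcript, and others lie between genes. REPO-1 is the worm counterpart of SF3A2, a subunit of the U2 snRNP that recognises the branch point of introns. Worms use some miRNAs as developmental timers (lin-4 and the let-7 family), others in the embryo (the mir-35 and mir-51 families), and the mir-58 family, relatives of fly bantam, is among the most abundant.

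The mature sequences of the genes on which the results turn are given first, beginning with the mir-51 family. They were read from the RefSeq annotation and genome of assembly WBcel235 (ce11), are written 5′ to 3′ as RNA, and have the seed in capitals. The 6 miRNAs of the mir-51 family, whose genes all had a peak, share the seed ACCCGUA and differ after it:
mir-51: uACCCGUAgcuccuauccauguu
mir-52: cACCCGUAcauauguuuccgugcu
mir-53: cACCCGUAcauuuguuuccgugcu
mir-54: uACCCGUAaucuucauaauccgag
mir-55: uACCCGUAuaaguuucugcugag
mir-56: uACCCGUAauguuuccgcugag

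Sequences are also given for 4 occupied genes of other families with several members (mir-2, also occupied, is named only), of which mir-80 and mir-58.1 belong to the mir-58 family, mir-61 to the mir-44 family and mir-250 to the mir-2 family:
mir-80: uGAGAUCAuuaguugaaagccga
mir-58.1: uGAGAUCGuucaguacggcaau
mir-61: uGACUAGAaccguuacucauc
mir-250: aAUCACAGucaacuguuggc

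The hairpin of mir-2214, which had the strongest peak, has an annotated product on each arm, and neither seed occurs in another annotated miRNA gene:
mir-2214, first arm: aUUCGGUCcggagucaauggg
mir-2214, second arm: cAUUGACAacaacuugaccggcguu

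For contrast, the let-7 and mir-35 families, which had no occupied member, are shown by their first members:
let-7: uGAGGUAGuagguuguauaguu
mir-35: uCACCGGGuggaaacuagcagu

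A gene was called occupied when a peak had its summit in a window around the 5′ end of the hairpin or of an annotated primary transcript. The window reached 500 bp upstream and 200 bp downstream. Peaks came from the authors' list of 1789 regions that passed the replicate comparison (IDR), called replicated peaks here. The strongest 1789 summits called on both replicates together gave the same counts, 21 miRNA genes and 697 protein-coding genes. The term replicated does not mean that a peak was strong in each replicate. The signal is the authors' own value for each peak, on a scale that is not stated, and rank 1 is the strongest. Of the 261 miRNA genes, 21 were occupied (8.05%, Wilson 95% interval 5.32 to 12%). By the same rule 697 of 19973 protein-coding genes were occupied (3.49%, 3.24 to 3.75%), and 3.1% of all annotated genes. The share at miRNA genes was below those at other small RNA genes, with 199 of 612 tRNA genes (32.5%), 84 of 346 snoRNA genes (24.3%) and 22 of 129 snRNA genes (17.1%) occupied. The intervals cover counting error over genes only, and genes under a shared peak are not independent: the 21 genes lay at 18 peaks, 1.01% of the list. Since the study has 1 group, no test was made, and shares are set beside each other as descriptions.

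**Figure D1:**
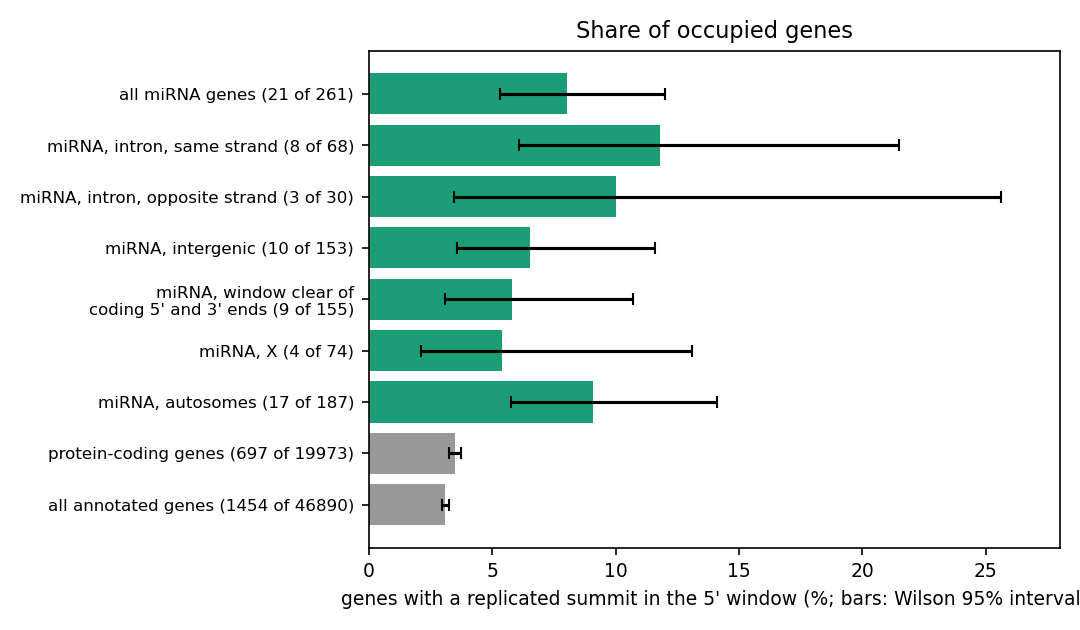
Share of genes with a replicated REPO-1 summit in the 5′ window (500 bp upstream, 200 bp downstream), in percent, with Wilson 95% intervals as bars, for gene classes and for miRNA genes by location, chromosome and neighbourhood. The miRNA share of 8.05% lies above the protein-coding share of 3.49% and the share of all annotated genes, 3.1%.

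Peaks at miRNA genes were mostly in the weaker part of the list. Their median signal was 159.8 (range 132.8 to 426.1), against 173.3 (range 131.5 to 1217.6) over all peaks. Only 6 of the 18 (33.3%) reached the median signal of the list, and their ranks ran from 87 to 1749 with a median of 1086. Summits lay upstream of the 5′ end at 19 of the 21 genes. Over all 21 genes, on either side, the distances were 2 to 500 bp with a median of 122 bp. The window reached 500 bp upstream but 200 bp downstream, so the side and the range of distances partly follow from the rule. Genes under a shared summit each counted it. The summit lay within the hairpin itself only at mir-52 and mir-4936, although the peak region reached the hairpin at 14 genes. All but 1 of the 18 regions were 436 bp wide, the exception being that of mir-2214.

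**Figure D2:**
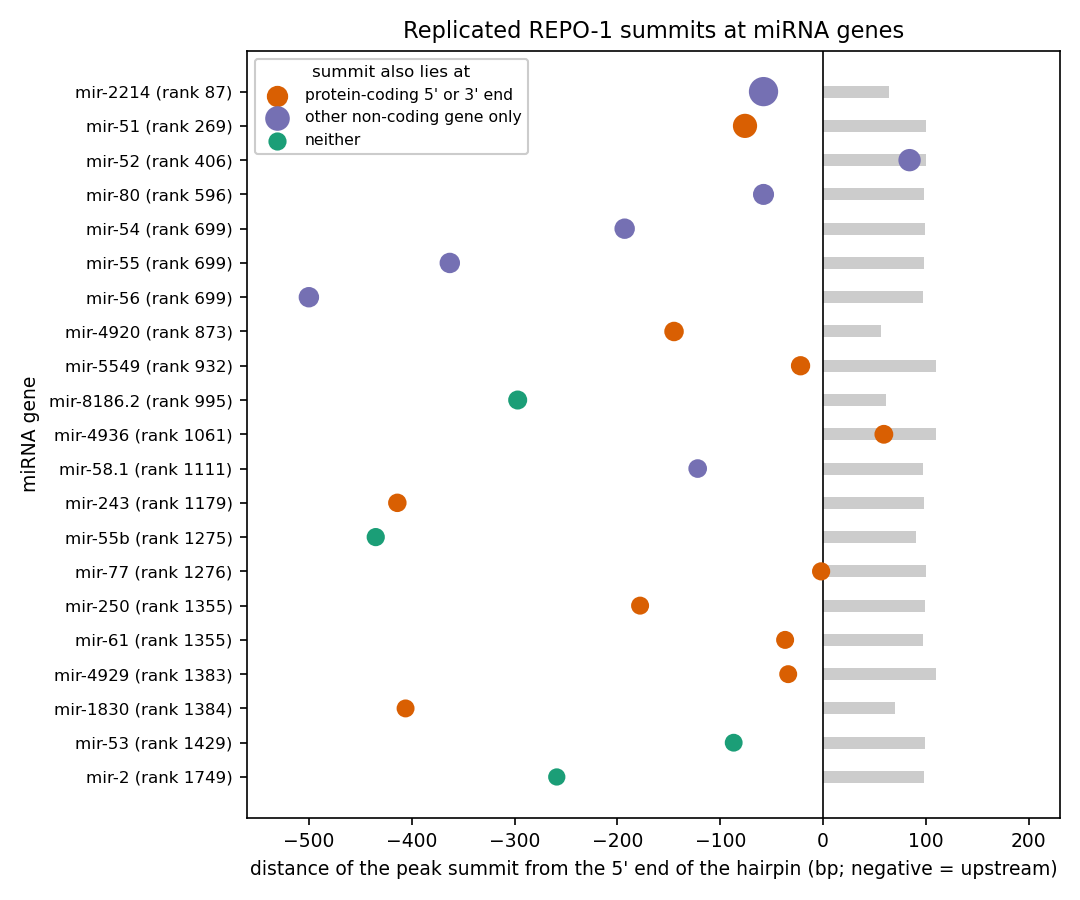
Position of the replicated summit at each of the 21 occupied miRNA genes, in bp from the 5′ end of the hairpin (negative is upstream), ordered by rank. Grey bars are the hairpins, point area follows the authors' signal, and colour gives the other annotated features at the summit. Within a window reaching 500 bp upstream and 200 bp downstream, summits lie upstream at 19 genes and inside the hairpin at mir-52 and mir-4936.

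In 100-bp bins around the 5′ end, miRNA genes had most summits directly upstream. The bin from 100 bp upstream to the 5′ end held a summit for 8 genes (3.07%), and the next bin upstream for 4 (1.53%). Protein-coding genes had their highest share 1 bin further out, from 200 to 100 bp upstream (0.751%), and 0.496% in the bin at the 5′ end. The miRNA profile was not a single peak. The bin from 500 to 400 bp upstream and the bin from 300 to 400 bp downstream each held a summit for 4 genes, and with such counts the bins cannot be ordered.

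**Figure D3:**
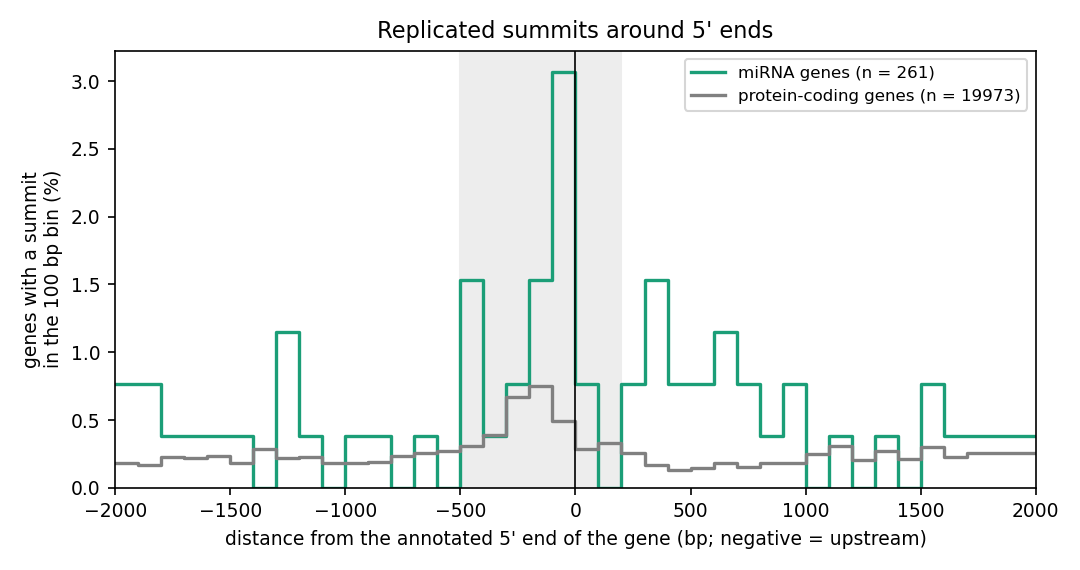
Share of genes with a replicated summit in each 100-bp bin around the annotated 5′ end, in percent, for 261 miRNA genes and 19973 protein-coding genes; the horizontal axis is the distance in bp (negative is upstream). The highest miRNA bin is directly upstream of the 5′ end, with 8 genes.

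The strongest peak was at mir-2214, whose hairpin lies at III:7278715-7278778 on the plus strand, in an intron of B0361.11. The peak spanned III:7278598-7278776 with its summit 58 bp upstream of the hairpin, a signal of 426.1 and rank 87. Its rank was 100 in replicate 1 (signal 245.8) and 83 in replicate 2 (signal 186.4), so both replicates placed it near the top. An annotated non-coding RNA, B0361.13, lay 126 bp from the summit. The host gene is 3601 bp long and its own 5′ end was not occupied.

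The mir-51 family was the only listed family occupied in full. Its 6 members act redundantly and are needed in the embryo, where their joint loss is lethal. They lay at 4 peaks on 2 chromosomes, and no annotated miRNA gene outside the family has the seed ACCCGUA. The hairpins of mir-51 (IV:11026013-11026112, minus strand) and mir-53 (IV:11027593-11027691, minus strand) are 1480 bp apart, and each had a peak of its own. At mir-51 the summit lay 76 bp upstream with signal 282.0 and rank 269, and ranks of 178 and 314 in replicates 1 and 2. It lay 318 bp from the 3′ end of alh-3, an aldehyde dehydrogenase gene, and inside the annotated non-coding RNA F36H1.17. At mir-53 the summit lay 87 bp upstream with signal 143.0 and rank 1429, with ranks of 2689 and 1054 in the replicates. In replicate 1 that region's summit lay 114 bp away, and the region with a nearer summit, 85 bp away, ranked 11026. This pooled summit was at no other annotated feature. Here and below, that means outside the windows at protein-coding 5′ and 3′ ends and over 200 bp from other non-coding genes, miRNA genes aside. The body of a protein-coding gene was not counted as a feature.

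Elsewhere on chromosome IV, mir-52 (IV:14034008-14034107, plus strand) had its summit 84 bp downstream of its 5′ end, within the hairpin. That peak had signal 237.4 and rank 406, with replicate ranks of 445 and 474, and the nearer of 2 annotated non-coding RNA genes lay 2 bp away. A further replicated summit of signal 148.7 and rank 1300 lay 184 bp past the hairpin's end. The remaining members, mir-54 (X:13144996-13145094), mir-55 (X:13144827-13144924) and mir-56 (X:13144691-13144787), follow each other on the minus strand with gaps of 71 and 39 bp. They lie within an intron of F09A5.3 and opposite to it. All 3 were called from a single summit upstream of mir-54, at 193, 363 and 500 bp from their 5′ ends, so mir-56 sat exactly on the limit of the window. Its signal was 194.1 and its rank 699, with replicate ranks of 1361 and 355, and the non-coding RNA F09A5.11 lay 16 bp away. The gene mir-55b, annotated on the plus strand across mir-55, was called from a different summit 435 bp upstream of it, with signal 149.6, rank 1275 and replicate ranks of 1593 and 1637. That summit was at no other annotated feature in this sense, though inside F09A5.3. It lay 296 bp past the end of mir-56, so the X cluster had a peak on either side.

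**Figure D4:**
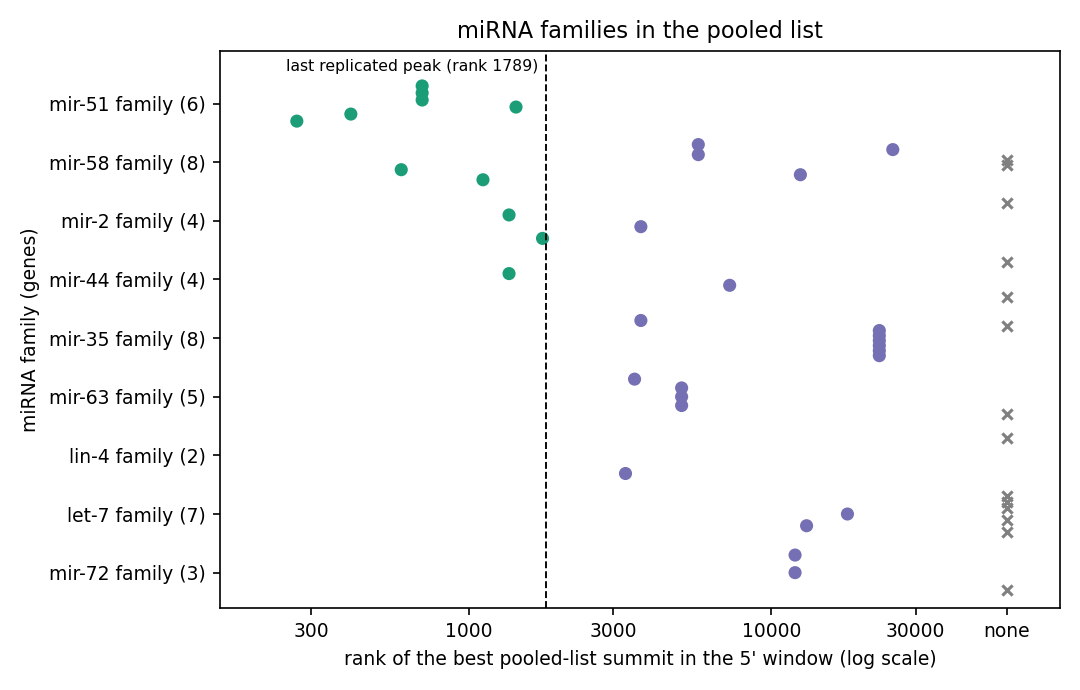
Best rank in the pooled list of a summit in the 5′ window of each member of the listed miRNA families (log scale, rank 1 strongest), with members without a summit set apart and occupied members marked. All 6 members of the mir-51 family lie within the replicated ranks, and none of the let-7 family does.

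Of the 8 matched members of the mir-58 family, mir-80 and mir-58.1 were occupied. This family tunes TGF-beta signalling and body size in the worm. At mir-80 (III:8865270-8865367, minus strand, intergenic) the summit lay 58 bp upstream with signal 207.3 and rank 596, and ranks of 404 and 1085 in the replicates. At mir-58.1 (IV:3233254-3233350, plus strand, in an intron of Y67D8A.2) it lay 122 bp upstream with signal 158.2 and rank 1111, and ranks of 827 and 2531. Non-coding RNAs lay near both summits, K01F9.6 at 59 bp and Y67D8A.6 at 30 bp. The seed printed above for mir-80 occurs in 6 genes, of which mir-80 alone was occupied, while that of mir-58.1 occurs in no other gene. The 6 other matched members, among them mir-81 and mir-82, had no replicated summit in the window.

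Of the mir-44 family 1 of 4 members was occupied, and of the mir-2 family 2 of 4. mir-61 (V:11770060-11770156), which acts in LIN-12/Notch signalling in vulval cells, and mir-250 (V:11769917-11770015) are 44 bp apart on the minus strand and shared a summit. It lay 37 bp upstream of mir-61 and 178 bp upstream of mir-250, with signal 145.9 and rank 1355. Its ranks in the replicates were 1102 and 3358. The 5′ end of F55A11.4 lay 274 bp away and the 3′ end of sel-11, a ubiquitin ligase gene, 294 bp away. mir-2, in an intron of ppfr-1 on chromosome I, had the weakest of the peaks. Its summit lay 259 bp upstream with signal 132.8 and rank 1749, and its replicate ranks were 3294 and 1671. The summit lay inside ppfr-1, but at no coding end and no other non-coding gene.

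A list of 20 further well-studied miRNA genes had 1 occupied member (5%, beside 8.05% of all miRNA genes). Among these, which include the muscle gene mir-1, the neuronal genes lsy-6 and mir-124 and the lifespan gene mir-71, mir-77 was the occupied gene. Its summit lay 2 bp upstream of the hairpin (II:12519268-12519367, plus strand) with signal 149.5 and rank 1276, and ranks of 1509 and 1517. The snoRNA T21B4.20 lay 49 bp from this summit and the 5′ end of srh-70 lay 407 bp from it. The remaining 9 occupied genes belonged to none of the lists, which were chosen with earlier results known.

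Among the 9, mir-4920 (IV:8133417-8133472, in an intron of sph-1) had a summit 145 bp upstream with signal 174.7 and rank 873, 59 bp from the 5′ end of its host. mir-5549 (III:6971976-6972085) had a summit 22 bp upstream with signal 170.4 and rank 932, 146 bp from the nearer of the 5′ ends of eef-1A.1, which encodes translation elongation factor 1A, and rfc-4, which encodes a replication factor C subunit. mir-4936 (III:3249151-3249260) had its summit 59 bp downstream, in the hairpin, with signal 161.5 and rank 1061, 129 bp from the 3′ end of Y53G8AL.4. At these genes a coding gene's end lay close to the hairpin as well.

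mir-8186.2 (II:18637-18697, minus strand) had a summit at no other annotated feature, 297 bp upstream, with signal 165.2, rank 995 and replicate ranks of 1051 and 1485. The nearest coding 5′ end, that of gmeb-1, lay 544 bp from this summit, just beyond the 500 bp reach of its window. mir-8186.2 overlaps mir-8186.1 on the other strand, from whose 5′ end the same summit lay 356 bp downstream, outside the window. mir-243, whose mature miRNA is loaded into the Argonaute RDE-1, lies in an intron of R08C7.12 and had a summit 414 bp upstream with signal 154.7 and rank 1179, 468 bp from the 3′ end of chat-1. In the replicates the strongest region overlapping this peak ranked 514 and 384, but its summit lay 174 and 204 bp away. The regions with the nearest summits, 34 and 2 bp away, ranked 4862 and 1351. The other 2 were mir-4929 in E01G4.3 (rank 1383) and mir-1830 in paic-1 (rank 1384). The first had an internal 5′ end of its host 147 bp away. At mir-1830 the 5′ end of its host paic-1 lay 212 bp from the summit and inside the peak region, just too far for the host to be called occupied. The 3′ end of ntl-2, a CCR4-NOT complex gene, lay 426 bp away.

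The position of the gene relative to protein-coding genes was compared next. Intronic genes on the strand of their host were occupied in 8 of 68 cases (11.8%, 6.08 to 21.5%) and intergenic genes in 10 of 153 (6.54%, 3.59 to 11.6%), and the intervals overlap. Intronic genes on the opposite strand were occupied in 3 of 30 cases (3.46 to 25.6%), which were the 3 genes under the X-chromosome summit. None of 10 genes overlapping an exon was occupied, which allows up to 27.8%. The 68 same-strand genes have 62 different hosts, of which 3 (4.84%) were occupied at their own 5′ end. Of the occupied intronic genes, mir-4920 and mir-4929 alone had an occupied host, called from the same summit as the miRNA gene. On X 4 of 74 miRNA genes were occupied (5.41%, 2.12 to 13.1%) and on autosomes 17 of 187 (9.09%, 5.75 to 14.1%). Protein-coding genes had 2.2% on X and 3.69% on autosomes, and the miRNA intervals overlap.

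At most occupied miRNA genes the summit was also at another annotated feature. The counts below were not made over all replicated peaks, so they do not set the summits at miRNA genes apart. Of the 21 genes, 6 (28.6%) had the summit in the 5′ window of a protein-coding gene. At 7 (33.3%) it lay in a window reaching 200 bp before and 500 bp past the 3′ end of such a gene. At 9 (42.9%) another non-coding gene lay within 200 bp, in 8 of them a gene of the unspecified biotype ncRNA. Only mir-8186.2, mir-55b, mir-53 and mir-2 (19%) had none of these. With the loosely defined classes ncRNA, piRNA and pseudogene set aside, 11 genes (52.4%) had a summit at no other feature. The neighbours were also described without using the summits. Where the 5′ window of the miRNA gene met no coding 5′ or 3′ window, 9 of 155 genes were occupied (5.81%, 3.08 to 10.7%), and where it met at least 1, 12 of 106 were (11.3%, 6.6 to 18.8%). Whether the peaks belong to the miRNA gene or to its neighbour cannot be told apart at this spacing.

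The 18 peaks were also looked up in the list of each replicate, by the strongest overlapping region. In replicate 1 they ranked from 100 to 3294 (median 1076.5), and 15 were among its strongest 1789. In replicate 2 they ranked from 83 to 4389 (median 1285), and 13 were among its strongest 1789. Both held for 10 of the 18 peaks (55.6%), against 64.3% of all replicated peaks, and for 12 of the 21 genes. By the overlapping region with the nearest summit, which differed at mir-243 and mir-53, it held for 9 of the 18 peaks (50%, against 58.7% of all replicated peaks) and for 11 genes. By the strongest overlapping region, the widest disagreement was at mir-4929, which ranked 921 and 4389. mir-4920 followed with 685 and 3022, while mir-2214, mir-51 and mir-52 were high in both. By the nearest summit, the disagreement was wider at mir-53, which ranked 11026 and 1054.

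**Figure D5:**
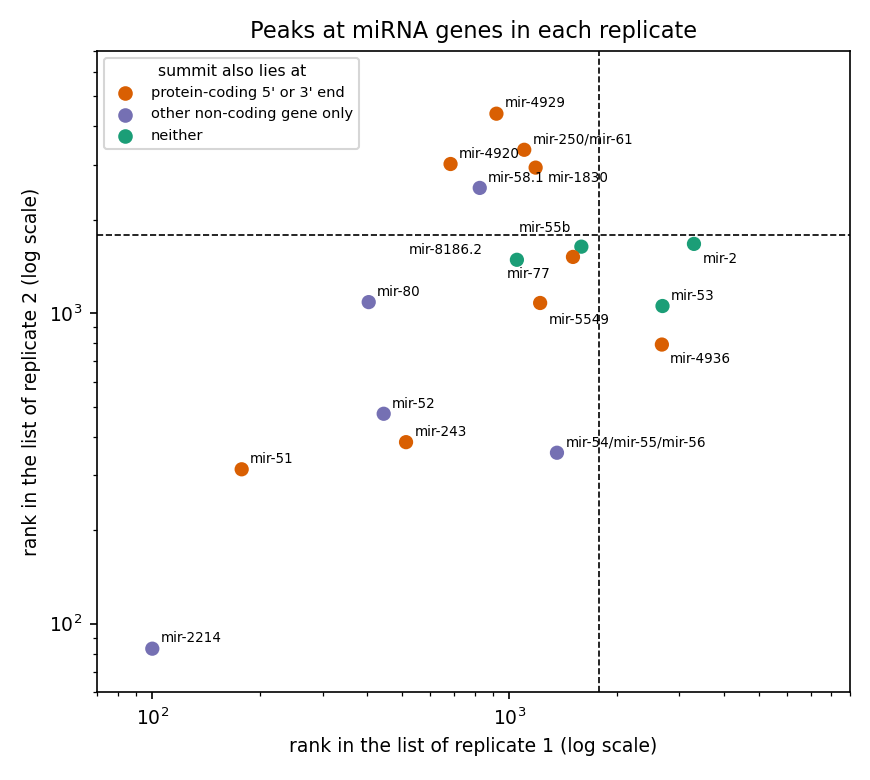
Rank of the strongest region overlapping each of the 18 peaks at miRNA genes, in the list of replicate 1 and of replicate 2 (both axes logarithmic, rank 1 strongest). Dashed lines mark rank 1789, and 10 peaks lie inside both; mir-2214 lies lowest on both axes.

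The families without an occupied member differed in how near a peak came. The nearest miss was mir-41, the last hairpin of the mir-35 to mir-41 cluster, which spans 797 bp at II:11537608-11538404. The mir-35 family acts in the early embryo and is needed for its development. A replicated summit lay 203 bp downstream of the 5′ end of mir-41, which is 3 bp outside the window and 107 bp past the end of its hairpin. Its signal was 286.9 and its rank 257, above every peak at an occupied miRNA gene except that of mir-2214. It ranked 706 in replicate 1 and 156 in replicate 2, and the 3′ end of dhgd-1 lay 384 bp away. Over all unoccupied genes the next nearest was mir-45, of the mir-44 family in which mir-61 was occupied. At mir-45 a summit lay 307 bp downstream of the 5′ end and 212 bp past the hairpin (signal 143.3, rank 1419), 144 bp from the 3′ end of top-2. Upstream, the nearest summit outside the window was 861 bp from mir-354 (rank 874). Just inside, mir-55b at 435 bp and mir-243 at 414 bp followed mir-56.

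None of the developmental timers was occupied, beside 8.05% of all miRNA genes. In the let-7 family of 7 genes the nearest summit was 2289 bp away, at mir-84, and at let-7 itself it was 8370 bp away. At lin-4 it was 9220 bp away, and 1442 bp away at its relative mir-237. Neither the mir-63 family (5 genes) nor the mir-72 family (3 genes) had an occupied member, with nearest summits at 12387 and 3673 bp. With so few genes in each family and that share over all miRNA genes, the lack of an occupied member does not set these families apart. Over the 240 unoccupied miRNA genes the nearest summit lay at a median of 22766 bp, with quartiles of 8619 and 52085 bp.

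The list called on both replicates together, which has no significance threshold but stops at 30000 summits, was used to look below the replicated list. It gave a summit in the window of 100 of the 261 miRNA genes (38.3%, 32.6 to 44.3%) and of 25.5% of protein-coding genes. The median best rank was 10054 at miRNA genes and 10820.5 at protein-coding genes, and the replicated list held 21% and 13.7% of these genes. Of the 240 unoccupied genes, 79 had such a summit, at a median best rank of 12903, and 161 had none. The strongest of the 79 was at mir-239.2 (rank 2097), and lin-4 had rank 3276 with replicate ranks of 6132 and 4631. In the let-7 family the best was mir-48 at rank 13078. These counts depend on where the list stops. Absence from the replicated list covers weak summits as well as windows without a listed summit, and with unknown depth a lack of a summit says only that none was listed.

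Of 23 matched protein-coding genes of the miRNA pathway, 2 were occupied (8.7%, beside 3.49% of all protein-coding genes). vig-1, the counterpart of a fly RISC component, had a summit 442 bp upstream with signal 377.5 and rank 123, and ranks of 120 and 121 in the replicates. xrn-2, an exonuclease that degrades mature miRNAs, had one 133 bp downstream of its 5′ end with signal 184.2 and rank 789, and ranks of 1261 and 562. The genes for the processing enzymes and their partners, drsh-1, pash-1 and dcr-1, and the Argonaute genes alg-1 and alg-2 were not occupied.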

How the data were processed

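Region lists with 1 row per summit were used as deposited on ce11, which is the WBcel235 assembly: the replicated (IDR) list, the list called on both replicates together, and 1 list per replicate, the last 2 kinds holding 30000 summits each. As deposited, each row holds a signal and a q-value on the −log10 scale. Ranks used the signal within a list, and the q-value served as an alternative. For the caller, aligner, IDR threshold and signal scale, what the authors used is not given in the sources used here. Lists on ce10 were not used. Summits were compared with Ensembl release 115 gene models in Python 3.11.15 (numpy 2.4.6, pandas 2.3.3, scipy 1.17.1, matplotlib 3.10.9), tested on simulated data. Replicate ranks of replicated peaks at or near miRNA genes came from the strongest overlapping region, by at least 1 bp. For lin-4, vig-1 and xrn-2 they came from the strongest summit of each replicate's list in the gene's 5′ window. Mature-product ends were not counted as 5′ ends. Symbols are RefSeq's by WormBase ID; mir-1834 and ntl-1 matched no gene.

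Members, lists and alternatives were chosen with earlier results of these data known. The text names up to 12 occupied genes with the strongest peaks, those at no other feature, and occupied or nearest members of the listed families; occupied genes beyond that rule, mir-8186.1, mir-354, mir-239.2 and mir-48 were named after their values were seen. Alternatives were other windows, peak thresholds, feature classes and either replicate's list; those on mature-product or hairpin ends, on a 50% overlap and on the replicate region with the nearest summit were added after seeing the data.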

Additional observations from a re-analysis of the deposited data

How the results depend on the processing

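The 21 occupied genes became 33 with a window from 2000 bp upstream, 8 with peaks at or above the median signal, and 12 with peaks among the strongest of both replicates, where protein-coding genes gave 6.4%, 1.95% and 2.28% against 12.6%, 3.07% and 4.6% of miRNA genes. With the strongest peaks of either replicate alone the count was 16 to 17. Without replicate 1 (from replicate 2's list) mir-1830, mir-250, mir-4920, mir-4929, mir-56, mir-58.1 and mir-61 were not called and mir-229 and mir-239.2 were; without replicate 2 mir-2, mir-243, mir-4936 and mir-53 were not. Genes with a summit at no other feature numbered 4, and 3 with a coding 5′ window from 1000 bp upstream. They numbered 11 without the ncRNA, piRNA and pseudogene classes, 0 at or above the median signal and 2 to 4 with a single replicate. A window reaching 200 bp upstream and 100 bp downstream left 4 same-strand intronic genes (5 to 6 with a single replicate) and 1 opposite-strand gene (2 to 3). Counted as peaks, X had 2. The mir-58 family had 1 occupied member at or above the median signal and with peaks strong in both replicates, and 1 to 2 with a single replicate. The mir-35 family had 1 when any overlap of the region, a summit within 200 bp of the gene, or mature-product ends counted. The mir-51 family kept 4 to 6 members throughout. mir-2214, mir-51, mir-52, mir-54 and mir-80 were occupied under all 13 alternatives to the gene count. The causes were not tested. No paired analysis was possible because there is only 1 group.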

Other observations

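Low-numbered miRNA genes, among them many of the first to be cloned in the worm, had a higher occupied share than the rest. Of 61 genes numbered up to 90, with let-7, lin-4 and lsy-6 counted among them, 12 were occupied (19.7%), against 9 of the 200 others (4.5%). Without the mir-51 family the share was 6 of 55 (10.9%). In the list of 30000 summits called on both replicates together, a summit lay in the window of 68.9% of the low-numbered genes, of 65.5% without the mir-51 family and of 29% of the others. This division was chosen after the values were seen, and no test was made.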
